A study of Arabidopsis thaliana with 12 samples.

Results

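Carotenoids are the yellow and orange pigments of plastids, and the RNA levels of 10 enzymes that build them and their oxygenated derivatives, the xanthophylls, are described here in Arabidopsis thaliana seedlings. The 10 genes were listed by identifier as steps of the pathway, with earlier results of these data known, and all of them are among the 32833 genes of the deposited tables. They are PSY, PDS, ZDS, CRTISO, LYCB, LUT2, BCH1, BCH2, ZEP and VDE, and each was at 5 TPM or more in every library. TPM, the unit of these tables, is an RNA level corrected for transcript length and scaled to the library's total, so it is a relative level. Whole seedlings, 10 days old and dark-grown, were compared in 4 groups of 3 RNA-seq libraries: cry1 after 1 h of blue light at 40 µmol per square metre and second, cry1 kept dark, wild type (WT) after the same light, and WT kept dark. The cry1 mutant lacks cryptochrome 1, a blue light receptor, and the labels do not name its allele; the column headers of the tables call the WT Col. Whether the 3 libraries of each group are separate cultures is not stated, so a p-value reflects only how these libraries vary, and that variation may be technical.

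In plastids, phytoene synthase joins precursors from the methylerythritol phosphate pathway into colourless phytoene, desaturases and an isomerase turn it into red lycopene, and cyclases close its ends into rings. Hydroxylases and an epoxidase then make the xanthophylls, which sit in the light-harvesting antenna, protect it from excess light and are the source of the hormone abscisic acid. Dark-grown seedlings hold a small pool of carotenoids in their etioplasts, and light brings synthesis up as these become chloroplasts.

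The promoter windows below belong to PSY, BCH1, BCH2 and ZEP. On the log2(TPM + 1) scale these 4 members rose the most after blue light in both genotypes. By the ratio of mean TPM in WT, LUT2 (1.98) rose about as much as BCH2 (1.95). BCH2 was also lower in cry1 in both light conditions. Each window is the 300 bases before the gene start in RefSeq's TAIR10.1 annotation, written 5′ to 3′ along the gene's strand, which is the minus strand for all 4. They are chr5:5662998-5663297 for PSY, chr4:13096050-13096349 for BCH1, chr5:21337127-21337426 for BCH2 and chr5:26757403-26757702 for ZEP. Capitals mark every CACGT or its other-strand form ACGTG, the core that bZIP factors such as HY5 and bHLH factors such as the PIF proteins are known to bind.
PSY: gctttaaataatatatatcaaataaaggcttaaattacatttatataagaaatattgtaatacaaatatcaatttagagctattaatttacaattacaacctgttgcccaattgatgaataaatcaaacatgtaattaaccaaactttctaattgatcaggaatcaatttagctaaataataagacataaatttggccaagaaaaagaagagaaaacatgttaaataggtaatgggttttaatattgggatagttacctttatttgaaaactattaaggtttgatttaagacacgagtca
BCH1: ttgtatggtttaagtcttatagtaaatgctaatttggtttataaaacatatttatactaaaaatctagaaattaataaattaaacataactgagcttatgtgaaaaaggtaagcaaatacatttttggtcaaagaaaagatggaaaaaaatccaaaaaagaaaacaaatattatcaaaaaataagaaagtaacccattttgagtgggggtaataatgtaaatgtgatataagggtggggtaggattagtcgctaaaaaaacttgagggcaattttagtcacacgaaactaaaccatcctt
BCH2: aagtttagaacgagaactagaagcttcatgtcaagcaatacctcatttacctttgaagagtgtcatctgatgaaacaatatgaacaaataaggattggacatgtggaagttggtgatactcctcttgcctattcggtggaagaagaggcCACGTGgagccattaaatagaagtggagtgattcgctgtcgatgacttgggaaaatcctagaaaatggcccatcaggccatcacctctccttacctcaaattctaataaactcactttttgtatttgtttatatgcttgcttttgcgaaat
ZEP: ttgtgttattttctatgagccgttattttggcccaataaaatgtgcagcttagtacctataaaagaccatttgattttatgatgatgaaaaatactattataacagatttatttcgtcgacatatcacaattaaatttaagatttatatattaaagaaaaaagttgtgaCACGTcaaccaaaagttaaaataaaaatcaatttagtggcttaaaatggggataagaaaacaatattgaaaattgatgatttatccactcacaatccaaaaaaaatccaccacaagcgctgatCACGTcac

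The CACGT core was found in the windows of 3 of the 10 members, LUT2, BCH2 and ZEP, against 25.6% of all 27443 promoter windows of this length. The G-box CACGTG, which is the core read on both strands at once, was in 1 member, BCH2, and starts 151 bases before its start, against 7.09% of all windows. ZEP has the core 131 and 8 bases before its start, and LUT2 has it 170 bases before. The PIF-binding E-box CACATG, or CATGTG on the other strand, was in 1 member, again BCH2 at 201 bases before its start, against 13.1%. The ATCTA element, or TAGAT on the other strand, that the factor RAP2.2 is known to bind in the PSY promoter, was in the windows of PDS, ZDS, CRTISO, LUT2 and BCH1, 5 of 10 members, against 56.0% of all windows. PSY, LYCB and VDE held none of these letters in this window, which says nothing of the sequence beyond it.

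Between 18409 and 19380 genes had at least 1 TPM in each library. Log2 values of libraries of the same group correlated across genes at r = 0.955 to 0.977. CRY1 RNA was at 0, 0.62 and 1.12 TPM in cry1 blue and 0.92, 1.71 and 0.31 TPM in cry1 dark. It was at 50.0, 23.8 and 33.0 TPM in WT blue and 59.6, 56.3 and 59.9 TPM in WT dark, so the genotype labels hold in all 12 libraries. The 4 seed storage and oil body genes listed as markers summed to 44.9 TPM in cry1 blue replicate 2 and 17.1 TPM in cry1 dark replicate 1, against at most 1.83 TPM in each of the other libraries. These 2 libraries stand apart in that respect, and the counts of members below are also given without them. Among 8 root markers the summed level was 122 to 149 TPM in cry1 blue, 51.6 to 80.6 TPM in cry1 dark, 9.84 to 21.9 TPM in WT blue and 26.9 to 40.1 TPM in WT dark. Of these 8, 6 were called higher in cry1 than in WT in blue light and 5 in the dark, by the test given below. In both conditions 0 were called lower, and IRT1 was listed at 0 in all 3 WT blue libraries. Among 5 cotyledon and etioplast markers (RBCS1A, LHCA1, PORA, PORB and GLK1) the summed level was 2305 to 2813 TPM in cry1 blue, 573 to 679 TPM in cry1 dark, 1601 to 2650 TPM in WT blue and 1492 to 1577 TPM in WT dark. In whole seedlings, fewer cells of a type and less RNA per cell cannot be told apart.

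With blue light, 6 of the 10 members rose in cry1 (PSY, LYCB, LUT2, BCH1, BCH2 and ZEP) and 5 of the 10 rose in WT (the same without LYCB), and none fell in either genotype. The rise was 3.22-fold to 5.87-fold in cry1 for PSY, BCH1, BCH2 and ZEP, and the lycopene-forming enzymes PDS, ZDS and CRTISO did not pass the test. Calls here and below are those of limma on log2(TPM + 1), fitted to 20314 genes in all 12 libraries, at a Benjamini-Hochberg adjusted p under 0.05, and log2 fold changes are on that scale. Of all genes tested, 9.19% were higher and 5.73% lower in cry1 blue than in cry1 dark, and 9.73% were higher and 25.3% lower in WT blue than in WT dark. The median log2 fold change of the members was 0.82 in cry1 and 0.53 in WT, beside -0.06 and -0.27 over all genes tested in the same comparisons. In WT 27.8% of all calls with light were higher calls as deposited, against 51.3% with TMM-type scaling, which moved the median of all genes by 0.27. The members' median with TMM-type scaling was 0.87 in cry1 and 0.82 in WT, and with quantile normalization 0.82 in cry1 and 0.80 in WT, so its lower value in WT as deposited depends on the scaling. With TMM-type scaling 7 members were called higher in each genotype, beside 2498 of all 20314 genes in cry1 and 3561 in WT. The summed level of the 10 members was 328 to 350 TPM in cry1 blue and 122 to 189 TPM in cry1 dark, and 351 to 530 TPM in WT blue and 202 to 233 TPM in WT dark, with no overlap between light and dark in either genotype. Without the 2 libraries that carried seed markers, 5 members rose in cry1 and 5 in WT, the lost call being that of LUT2 in cry1 (0.92, adjusted p = 0.0648). Over all 20045 genes of that fit, 1523 rose in cry1 and 1952 in WT. Among the cotyledon and etioplast markers, 4 of 5 were called higher after blue light in cry1 and 2 of 5 in WT, and 0 were called lower. The median log2 fold change of these markers was 2.04 in cry1 and 0.10 in WT. In WT, PORA averaged 9.94 TPM in blue light against 14.7 TPM in the dark, and PORB 182 TPM in both. The part of these markers in the result was not tested.

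**Figure D1:**
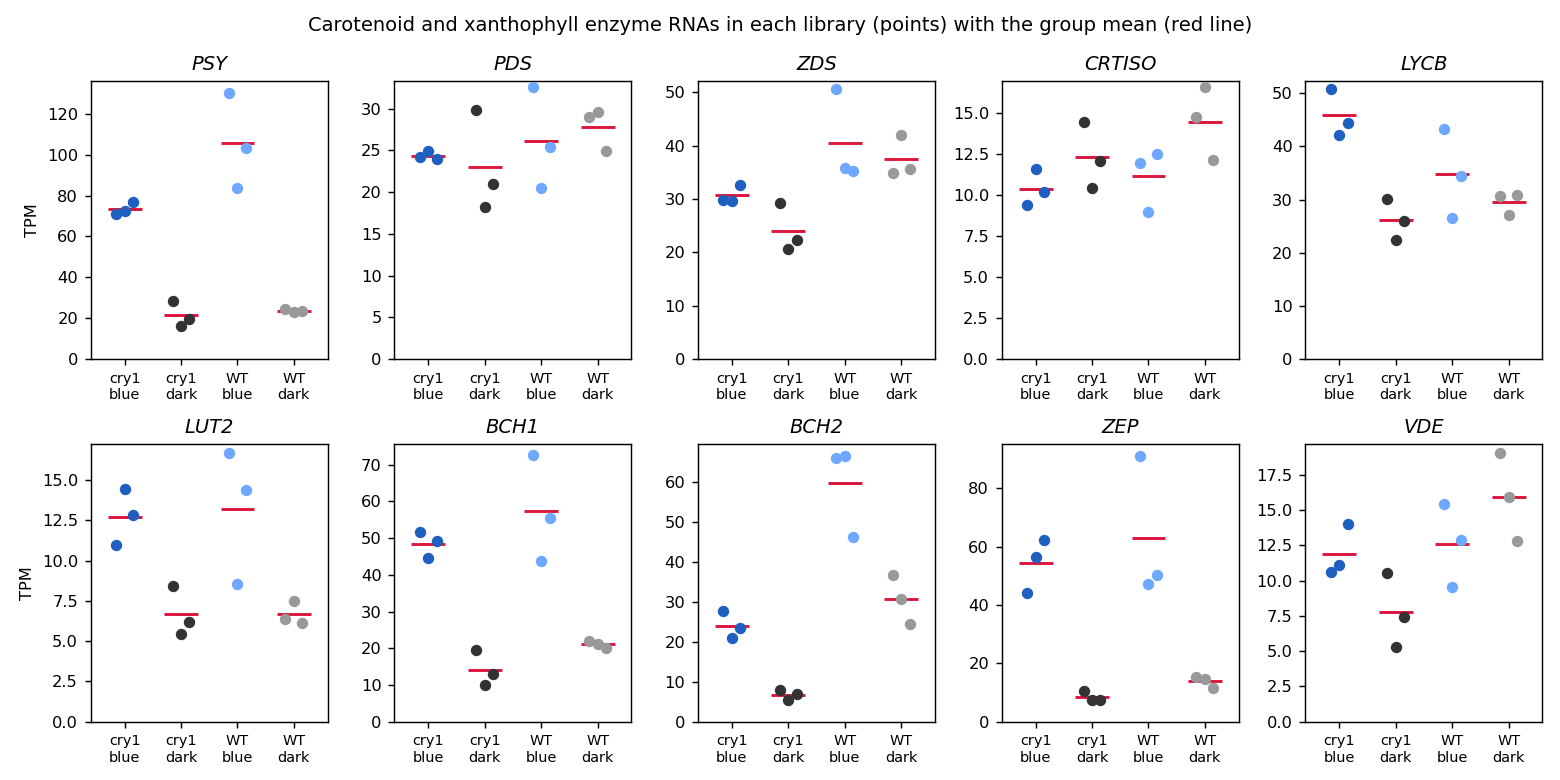
RNA level (TPM, linear axis from 0) of the 10 enzymes in each library, as points, with a line at the mean of each group of 3 libraries. PSY, BCH1, BCH2 and ZEP lay higher in blue light than in the dark in both genotypes, and BCH2 lay lower in cry1 than in WT in both conditions.

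PSY (AT5G17230, chr5:5659554-5662997, minus strand), phytoene synthase, makes the first carotenoid and is the only gene for this step in Arabidopsis. Gene coordinates here and below are those of RefSeq's TAIR10.1 annotation. It was at 70.9, 72.5 and 76.6 TPM in cry1 blue, against 28.3, 16.3 and 19.4 TPM in cry1 dark. WT libraries had 130.3, 83.6 and 103 TPM in blue light, against 24.3, 23.2 and 23.5 TPM in the dark. All blue libraries lay above all dark ones, and all 3 WT blue libraries lay above the 3 cry1 blue ones. PSY rose by a log2 fold change of 1.77 in cry1 (SE 0.20, adjusted p = 5.1e-05) and of 2.09 in WT (SE 0.20, adjusted p = 1.3e-05), calls kept when any one library was left out. In blue light PSY was lower in cry1 by a log2 fold change of -0.50 that did not pass the test (SE 0.20, adjusted p = 0.0911). With TMM-type scaling, which aligns the bulk of genes between libraries, it passed (-0.47, adjusted p = 0.0176), and with quantile normalization it did not. It also passed without cry1 dark replicate 1 (adjusted p = 0.0457), a fit that leaves the estimate of -0.50 unchanged. In the dark the groups overlapped (-0.18, SE 0.20, adjusted p = 0.532). The difference between the light responses, cry1 minus WT, was -0.32, with a 95% confidence interval from -0.94 to 0.30, which spans both a weaker and a stronger response in cry1.

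The next enzymes turn phytoene into lycopene, and none of the 3 passed the test with light in either genotype. PDS (AT4G14210, chr4:8190190-8195320, minus strand), phytoene desaturase, was at 24.2, 25.0 and 23.9 TPM in cry1 blue and 29.8, 18.2 and 21.0 TPM in cry1 dark. WT libraries had 32.6, 20.5 and 25.4 TPM in WT blue and 29.1, 29.6 and 24.9 TPM in WT dark. These groups overlap in all 4 comparisons of one group with another, and the log2 fold changes were between -0.29 and 0.11 with adjusted p of 0.3 or more. ZDS (AT3G04870, chr3:1342455-1346387, plus strand), zeta-carotene desaturase, was at 29.8, 29.5 and 32.7 TPM in cry1 blue and 29.3, 20.7 and 22.3 TPM in cry1 dark. In WT, ZDS was at 50.6, 35.9 and 35.3 TPM in WT blue and 34.9, 41.9 and 35.7 TPM in WT dark. Every cry1 library lay below every WT library of the same light condition. In the dark ZDS was lower in cry1 by a log2 fold change of -0.63 (SE 0.18, adjusted p = 0.0228). The call was lost after TMM-type scaling (-0.34, adjusted p = 0.0903) and quantile normalization (-0.28, adjusted p = 0.167). It was lost too without cry1 dark replicate 2 or 3 or WT dark replicate 1 or 2 (adjusted p = 0.0893, 0.0572, 0.0536 and 0.0944). In blue light the difference was -0.37 (adjusted p = 0.157). Its light responses of 0.35 in cry1 and 0.10 in WT did not pass the test, although the one in WT passed with TMM-type scaling (0.41, adjusted p = 0.0414). CRTISO (AT1G06820, chr1:2092946-2096784, minus strand), carotenoid isomerase, was at 9.37, 11.6 and 10.2 TPM in cry1 blue and 14.4, 10.4 and 12.1 TPM in cry1 dark. In WT, CRTISO was at 11.96, 8.92 and 12.5 TPM in WT blue and 14.7, 16.5 and 12.1 TPM in WT dark. It was the 1 member whose log2 fold change with light was below 0 in both genotypes, at -0.22 in cry1 and -0.35 in WT, with overlapping groups and adjusted p of 0.509 and 0.170. Its interval for the difference between the light responses ran from -0.46 to 0.73 about 0.13.

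At the branch point, LYCB (AT3G10230, chr3:3164075-3166038, minus strand), lycopene beta-cyclase, forms the rings of beta-carotene, and LUT2 (AT5G57030, chr5:23077120-23080096, plus strand), lycopene epsilon-cyclase, forms the other ring type on the way to lutein. LYCB was at 50.9, 42.2 and 44.5 TPM in cry1 blue, against 30.1, 22.4 and 25.9 TPM in cry1 dark, without overlap. In WT, LYCB was at 43.2, 26.6 and 34.5 TPM in blue light, against 30.6, 27.1 and 30.8 TPM in the dark, with overlap. LYCB rose in cry1 by a log2 fold change of 0.79 (SE 0.19, adjusted p = 0.0111), and its 0.20 in WT did not pass the test (SE 0.19, adjusted p = 0.411). With TMM-type scaling and quantile normalization the WT response passed too (0.51, adjusted p = 0.0218, and 0.45, adjusted p = 0.0337). Between genotypes in blue light LYCB had a log2 fold change of 0.41 that did not pass (adjusted p = 0.127), and both scalings brought it past the threshold (0.44, adjusted p = 0.0419, and 0.51, adjusted p = 0.0205). That last difference also passed without WT blue replicate 1 (0.58, adjusted p = 0.0452). The difference between the 2 light responses was 0.59, with an interval from 0.02 to 1.16, and did not pass over all genes (adjusted p = 0.169). LUT2 was at 10.96, 14.4 and 12.8 TPM in cry1 blue, against 8.41, 5.45 and 6.19 TPM in cry1 dark. In WT, LUT2 was at 16.7, 8.57 and 14.4 TPM in blue light, against 6.35, 7.5 and 6.16 TPM in the dark. Light and dark did not overlap in either genotype, and the log2 fold change was 0.85 in each (SE 0.24, adjusted p = 0.0290 in cry1 and 0.0161 in WT). The call in cry1 was lost without cry1 blue replicate 2 or 3 or cry1 dark replicate 2 or 3 (adjusted p = 0.0923, 0.0899, 0.0761 and 0.0898) and in a fit to those 2 groups alone (adjusted p = 0.0503). The call in WT was lost without WT blue replicate 1 or 3 or WT dark replicate 1 (adjusted p = 0.0574, 0.0600 and 0.0527). LUT2 levels in cry1 and WT were apart by -0.01 in blue light and -0.01 in the dark on the log2 scale, with intervals from -0.52 to 0.51 in blue light and from -0.53 to 0.50 in the dark.

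BCH1 and BCH2 are paralogous beta-carotene hydroxylases that turn beta-carotene into zeaxanthin. Their coding sequences are 83.7% identical over 887 aligned bases, and their longest identical run is 33 bases. Only a coding read no longer than that run could match both exactly. How reads that match both were counted is not given in the sources used here. BCH1 (AT4G25700, chr4:13093869-13096049, minus strand) was at 51.6, 44.5 and 49.3 TPM in cry1 blue, against 19.6, 10.1 and 12.9 TPM in cry1 dark. WT libraries had 72.5, 43.9 and 55.4 TPM in blue light, against 21.9, 21.2 and 20.1 TPM in the dark. It rose by a log2 fold change of 1.75 in cry1 (SE 0.23, adjusted p = 0.000143) and of 1.37 in WT (SE 0.23, adjusted p = 0.000684), with no overlap between light and dark. In the dark all 3 cry1 libraries lay below the 3 WT ones (-0.59, SE 0.23, adjusted p = 0.0685), a difference that passed without cry1 dark replicate 1 (-0.83, adjusted p = 0.0145). It was smaller with TMM-type scaling (-0.31, adjusted p = 0.177) and quantile normalization (-0.19, adjusted p = 0.414). BCH2 (AT5G52570, chr5:21334793-21337126, minus strand) was at 27.6, 20.9 and 23.4 TPM in cry1 blue, against 7.89, 5.49 and 6.93 TPM in cry1 dark. In WT, BCH2 was at 66.1, 66.5 and 46.3 TPM in blue light, against 36.7, 30.6 and 24.5 TPM in the dark. The cry1 libraries in blue light lay close to the WT libraries in the dark, with cry1 blue replicate 1 above WT dark replicate 3 and the others below all WT dark libraries. BCH2 rose by a log2 fold change of 1.69 in cry1 (SE 0.21, adjusted p = 9.4e-05) and of 0.94 in WT (SE 0.21, adjusted p = 0.00451).

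ZEP and VDE run the xanthophyll cycle in opposite directions. ZEP (AT5G67030, chr5:26753469-26757402, minus strand), zeaxanthin epoxidase, makes violaxanthin and is the entry to abscisic acid synthesis. It was at 44.2, 56.4 and 62.3 TPM in cry1 blue, against 10.5, 7.30 and 7.54 TPM in cry1 dark. In WT, ZEP was at 91.0, 47.2 and 50.2 TPM in blue light, against 15.2, 14.8 and 11.5 TPM in the dark. ZEP had the largest log2 fold change with light among the members in cry1, 2.55 (SE 0.25, adjusted p = 1.3e-05), and the second largest after PSY in WT, 2.05 (SE 0.25, adjusted p = 7.2e-05). In the dark it lay lower in all 3 cry1 libraries, by a difference of -0.66 that did not pass the test (SE 0.25, adjusted p = 0.0610). It passed without cry1 dark replicate 1 (-0.81, adjusted p = 0.0404) or WT blue replicate 1 (adjusted p = 0.0252), and was smaller with TMM-type scaling (-0.39, adjusted p = 0.145) and quantile normalization (-0.26, adjusted p = 0.391). VDE (AT1G08550, chr1:2706868-2709988, plus strand), violaxanthin de-epoxidase, turns violaxanthin back into zeaxanthin in strong light. It was at 10.6, 11.1 and 14.0 TPM in cry1 blue, against 10.6, 5.31 and 7.39 TPM in cry1 dark. In WT, VDE was at 15.4, 9.54 and 12.9 TPM in blue light, against 19.0, 15.9 and 12.8 TPM in the dark. The cry1 dark libraries lay below the WT dark ones, and light and dark overlapped in WT but not in cry1, where 10.62 TPM in the lowest blue library stood beside 10.55 TPM in the highest dark one. Its log2 fold change with light was 0.59 in cry1 (SE 0.25, adjusted p = 0.137) and -0.32 in WT (SE 0.25, adjusted p = 0.328). The response in cry1 passed with TMM-type scaling (0.65, adjusted p = 0.0212), with quantile normalization (0.62, adjusted p = 0.0234) and without cry1 dark replicate 1 (0.82, adjusted p = 0.0466).

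**Figure D2:**
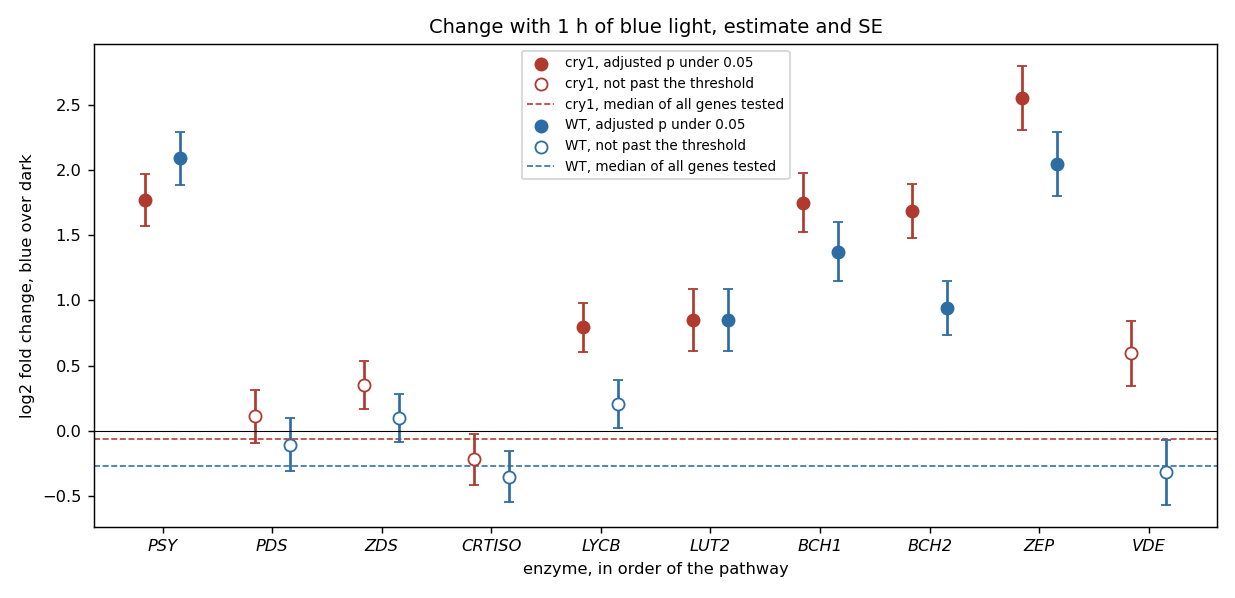
Log2 fold change of blue light over dark for each enzyme, in cry1 and in WT, with bars of 1 SE from limma, filled where the adjusted p was under 0.05, and dashed lines at the median of all genes tested. PSY, LUT2, BCH1, BCH2 and ZEP are filled in both genotypes and LYCB in cry1 alone, a contrast between genotypes that did not pass its own test.

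Between genotypes, BCH2 was the member that differed most: 2.41-fold lower in cry1 than in WT in blue light and 4.05-fold lower in the dark. In blue light it was the 1 member called, with a log2 fold change of -1.27 (SE 0.21, adjusted p = 0.00088), and all 3 cry1 libraries lay below the 3 WT ones. Of all genes tested, 10.9% were higher and 14.3% lower in cry1 blue than in WT blue. In the dark 3 members were lower in cry1 and 0 higher: BCH2 (-2.02, SE 0.21, adjusted p = 0.000133), VDE (-0.98, SE 0.25, adjusted p = 0.0125) and ZDS (-0.63, given above). Of all genes tested, 5.33% were higher and 23.5% lower in cry1 dark than in WT dark, so 3 of 10 is close to the share of all genes. That share moved when a single library was left out: 4767 genes were called lower, against 2188 without cry1 dark replicate 2, 2342 without WT dark replicate 1 and 2525 without WT dark replicate 2. The median log2 fold change was -0.44 over the members in the dark beside -0.29 over all genes, and -0.12 beside -0.02 in blue light. With TMM-type scaling and quantile normalization the members' median was -0.16 and -0.050 in the dark, and -0.094 and -0.0066 in blue light. With TMM-type scaling the split over all genes in the dark was 2315 higher and 2748 lower, beside 1082 and 4767 as deposited, the median of all genes moved by 0.25, and BCH2 (-1.74, adjusted p = 0.000832) and VDE (-0.71, adjusted p = 0.0134) stayed called. Both stayed called with quantile normalization too (-1.66, adjusted p = 0.000531, and -0.59, adjusted p = 0.0246), whereas ZDS did not in either scaling. Relative to the median of all genes in the dark, BCH2 was at -1.72, VDE at -0.69 and ZDS at -0.34. In blue light 43.2% of all calls were higher calls as deposited, against 53.8% with quantile normalization. The VDE call was lost without cry1 dark replicate 2 (-0.77, adjusted p = 0.0579) or WT dark replicate 1 (-0.85, adjusted p = 0.0604), and the BCH2 calls were kept without any one library. Without the 2 libraries that carried seed markers, 1 member was lower in cry1 in blue light and 4 in the dark, BCH1 being the fourth (-0.83, adjusted p = 0.0199). Over all 20045 genes of that fit, 2530 were lower in blue light and 5028 in the dark. Beside these differences, 6 of 8 root markers were called higher in cry1 in blue light and 5 of 8 in the dark, and 0 were called lower. By mean TPM in the dark, IRT1 (0.35 in cry1, 0.78 in WT) and SCR (16.2 and 18.7) went the other way. Without WT dark replicate 1 the dark calls of EXPA7, COBL9 and LRX1 were lost (adjusted p = 0.0525, 0.0996 and 0.101). Of the 5 cotyledon and etioplast markers, 2 were higher and 0 lower in cry1 in blue light (PORA 1.16 and GLK1 1.37), and 0 were higher and 2 lower in the dark (RBCS1A -1.58 and LHCA1 -1.41). The part of both marker lists in the result was not tested.

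**Figure D3:**
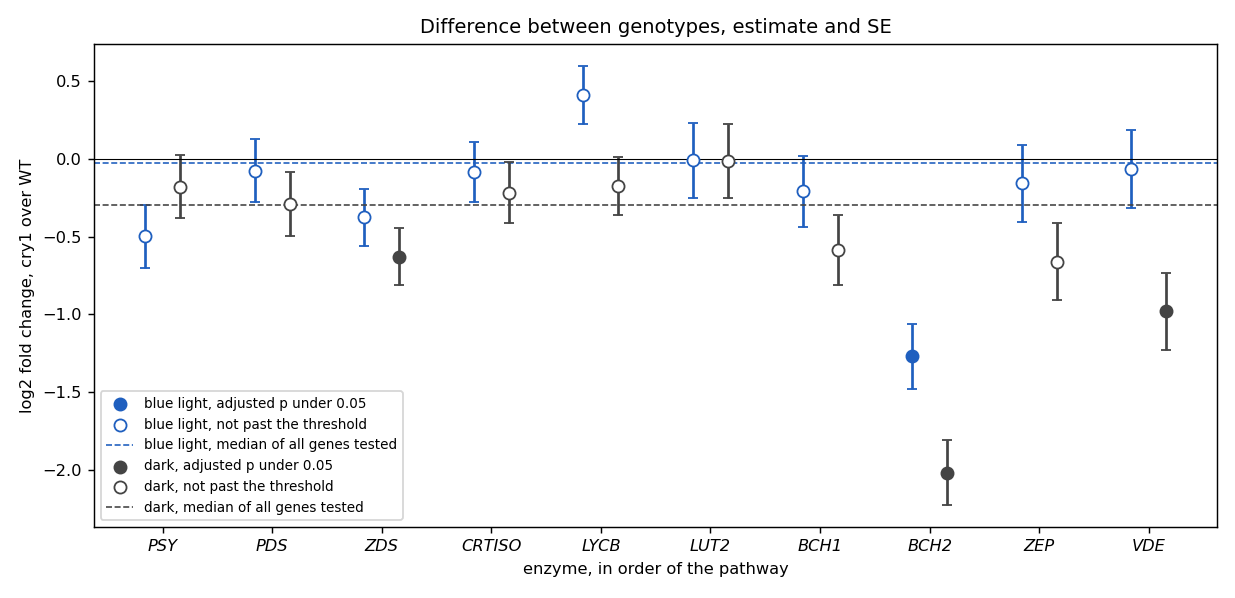
Log2 fold change of cry1 over WT for each enzyme, in blue light and in the dark, with bars of 1 SE from limma, filled where the adjusted p was under 0.05, and dashed lines at the median of all genes tested. BCH2 is filled in both conditions, and ZDS and VDE in the dark.

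The test of whether the light response itself differed between genotypes, the cry1 response minus the WT response, called 0 of the 10 members. Of all genes tested, 6.84% were higher and 2.33% lower in this contrast. At an unadjusted p under 0.05 there were 3 members, LYCB, BCH2 and VDE, all with a positive difference, while 20.2% of all genes were higher and 7.43% lower at that threshold. With TMM-type scaling and quantile normalization the differences were smaller, at 0.33 and 0.31 for LYCB, 0.49 and 0.54 for BCH2 and 0.67 and 0.63 for VDE. The difference was 0.75 for BCH2, with an interval from 0.11 to 1.38 (adjusted p = 0.121), and 0.92 for VDE, with an interval from 0.16 to 1.67 (adjusted p = 0.114). VDE passed without cry1 dark replicate 1 (1.14, adjusted p = 0.0471). For ZEP it was 0.50, from -0.25 to 1.26, for BCH1 0.38, from -0.32 to 1.07, and for LUT2 0.00, from -0.73 to 0.73. The intervals for PDS and ZDS were -0.41 to 0.84 and -0.31 to 0.81. The median of all genes in this contrast was 0.26 as deposited and 0.03 with TMM-type scaling, beside a members' median of 0.32 as deposited and 0.058 with TMM-type scaling (0.059 with quantile normalization). The share of higher calls over all genes was 74.6% as deposited and 57.9% with TMM-type scaling. None of these intervals is narrow enough to show that the genotypes respond alike. These 5 contrasts share groups, so they are not independent of each other.

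Ratios of 2 members within a library do not move with the scaling of that library, apart from the pseudocount, and are given as a description with no test. The log2 ratio of BCH1 over BCH2 was 0.88, 1.05 and 1.04 in cry1 blue, against 1.21, 0.77 and 0.81 in cry1 dark. In WT the same ratio was 0.13, -0.59 and 0.25 in WT blue and -0.72, -0.51 and -0.27 in WT dark. BCH1 was thus at the higher level in all 6 cry1 libraries, BCH2 in all 3 WT dark libraries, and the 2 were mixed in WT blue. The log2 ratio of ZEP over VDE was 1.96, 2.25 and 2.08 in cry1 blue, against -0.01, 0.40 and 0.03 in cry1 dark. Its WT values were 2.49, 2.19 and 1.88 in WT blue, against -0.30, -0.10 and -0.14 in WT dark. Epoxidase RNA was therefore near the level of de-epoxidase RNA in the dark and above it in light, in both genotypes and without overlap. The log2 ratio of LYCB over LUT2 was 2.12, 1.49 and 1.72 in cry1 blue, against 1.73, 1.86 and 1.91 in cry1 dark. WT libraries had 1.32, 1.53 and 1.21 in WT blue and 2.11, 1.73 and 2.15 in WT dark. It was lower in blue light than in the dark in all WT libraries, while the cry1 groups overlapped.

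**Figure D4:**
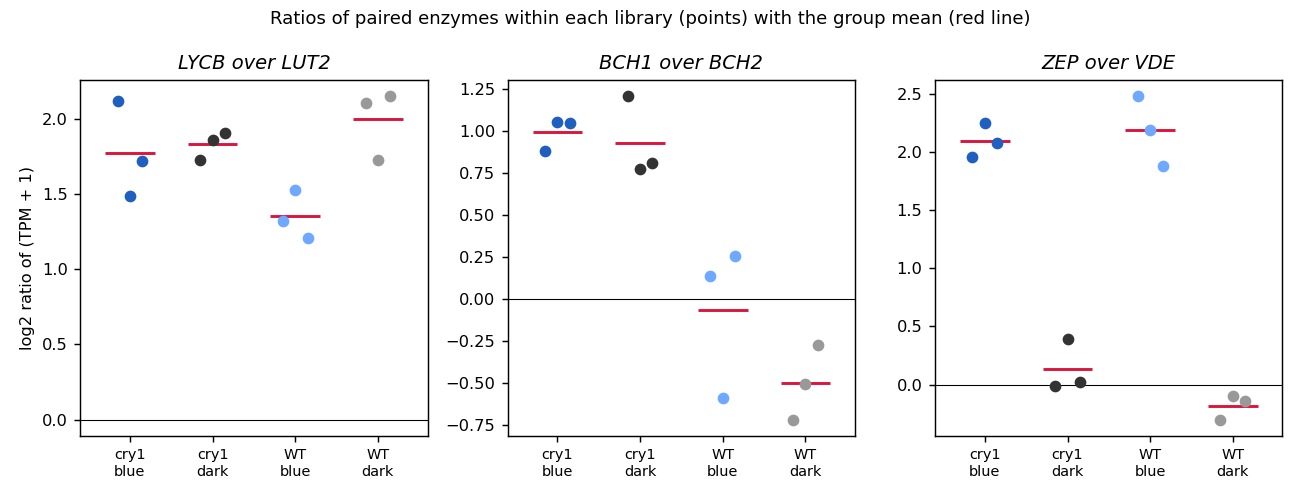
Log2 ratio of (TPM + 1) between 2 enzymes within each library, as points, with a line at the group mean, for LYCB over LUT2, BCH1 over BCH2 and ZEP over VDE. BCH1 over BCH2 separates the genotypes (0.77 or more in all cry1 libraries, at most 0.25 in WT), and ZEP over VDE separates light from dark.

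By mean level, which TPM gives per length, PSY ranked first in both blue groups, at 73.4 ± 2.93 TPM in cry1 and 105.7 ± 23.4 TPM in WT (SD, n = 3 each). In cry1 blue its libraries lay apart from those of ZEP, next in order at 54.3 ± 9.25 TPM, whereas in WT blue they overlapped with ZEP at 62.8 ± 24.5 TPM. LYCB ranked first in cry1 dark, at 26.2 ± 3.87 TPM, but overlapped with ZDS, PDS and PSY in turn, and ZDS ranked first in WT dark, at 37.5 ± 3.82 TPM, and overlapped with BCH2. LUT2 was the lowest in both dark groups, at 6.68 ± 1.54 TPM in cry1 and 6.67 ± 0.73 TPM in WT, and apart from its neighbour ZEP in WT but not from BCH2 in cry1. CRTISO was the lowest in both blue groups, at 10.4 ± 1.11 TPM in cry1 and 11.1 ± 1.92 TPM in WT, and overlapped with VDE. BCH2 had rank 7 of 10 in cry1 blue and rank 9 in cry1 dark, against rank 3 in WT blue and rank 2 in WT dark.

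Over the 12 libraries, log2 levels of BCH1 (r = 0.974), ZEP (r = 0.973) and LUT2 (r = 0.922) followed those of PSY most closely among the members. Next came LYCB (0.722), BCH2 (0.706), ZDS (0.528), VDE (0.316) and PDS (0.224), with CRTISO at -0.442. These are Pearson correlations over 4 groups that differ in light and genotype, so they describe the group pattern, and the libraries share each library's scaling. Among 14879 genes with a mean of at least 5 TPM, the 5 most like PSY were KEA3 (AT4G04850), a thylakoid potassium antiporter, SPS1 (AT1G78510) and SPS2 (AT1G17050), solanesyl diphosphate synthases, TRXF1 (AT3G02730), a chloroplast thioredoxin, and AT2G36630, at r = 0.996, 0.995, 0.991, 0.993 and 0.991 in that order. In the same ranking by r with PSY, BCH1 had rank 64, ZEP rank 69, LUT2 rank 327, LYCB rank 1183 and BCH2 rank 1249, so other genes followed PSY more closely. SPS1 averaged 30.5 TPM in cry1 blue and 7.12 TPM in cry1 dark, and 47.3 TPM in WT blue and 9.55 TPM in WT dark. KEA3 averaged 8.88 TPM in cry1 blue and 1.80 TPM in cry1 dark, and 12.2 TPM in WT blue and 2.27 TPM in WT dark.

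The 4 remaining enzymes of the pathway had 1 gene called higher after light, ABA4, in each genotype. The share over all genes tested was 9.19% in cry1 and 9.73% in WT. Z-ISO, the zeta-carotene isomerase, averaged 15.2 ± 0.99 TPM in cry1 blue, 14.8 ± 2.93 TPM in cry1 dark, 14.6 ± 2.67 TPM in WT blue and 14.4 ± 2.87 TPM in WT dark. ABA4, needed for neoxanthin, rose in WT, with 23.4, 20.5 and 23.5 TPM in blue light against 15.3, 10.5 and 9.86 TPM in the dark (0.89, SE 0.18, adjusted p = 0.00296). It was at 18.0, 15.4 and 17.0 TPM in cry1 blue against 10.9, 11.9 and 9.72 TPM in cry1 dark, a rise (0.59, SE 0.18, adjusted p = 0.0455). That call was kept in 3 of the 12 fits that leave out a library, with an adjusted p of up to 0.158. It was lost too with quantile normalization and without both libraries that carried seed markers (0.66, adjusted p = 0.105). LUT1, the epsilon-ring hydroxylase, was lower in cry1 in the dark, at 4.93, 2.38 and 3.28 TPM against 8.08, 7.00 and 5.91 TPM in WT (-0.85, SE 0.22, adjusted p = 0.0144). The call was lost without cry1 dark replicate 2 or WT dark replicate 1 (adjusted p = 0.0621 and 0.0658). With TMM-type scaling and quantile normalization LUT1 was lower in cry1 in blue light too (-0.50, adjusted p = 0.0227, and -0.49, adjusted p = 0.0243), and with quantile normalization Z-ISO was higher in cry1 in the dark (0.44, adjusted p = 0.0323). LUT5, a beta-ring hydroxylase of the lutein branch, was called in no contrast as deposited, with means of 9.16 ± 1.14 TPM in cry1 blue, 8.22 ± 1.72 TPM in cry1 dark, 11.7 ± 2.79 TPM in WT blue and 9.21 ± 0.93 TPM in WT dark. Its light response in WT, 0.29 as deposited (adjusted p = 0.296), passed with TMM-type scaling (0.58, adjusted p = 0.00419) and quantile normalization (0.61, adjusted p = 0.00262).

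Of 10 genes of precursor supply, the methylerythritol phosphate pathway with isopentenyl isomerases and GGPPS11, 1 was called higher with light in each genotype and 0 were called lower. In cry1 it was DXS, the first enzyme of that pathway, at 56.2, 87.4 and 81.4 TPM in blue light against 40.8, 30.7 and 41.5 TPM in the dark (0.96, SE 0.22, adjusted p = 0.0103), a call lost without both libraries that carried seed markers (0.90, adjusted p = 0.0651). In WT it was MDS, at 90.9, 89.0 and 97.7 TPM in blue light against 49.3, 67.8 and 45.5 TPM in the dark (0.78, SE 0.16, adjusted p = 0.00328). The share of all genes tested that were higher with light was 9.19% in cry1 and 9.73% in WT. GGPPS11 was not called, at 12.2, 2.54 and 2.36 TPM in WT blue against 21.7, 16.4 and 21.85 TPM in WT dark, without overlap. Its cry1 libraries had 0, 20.3 and 3.69 TPM in blue light and 10.7, 18.4 and 23.9 TPM in the dark. With TMM-type scaling 4 of the 10 rose in WT, beside 3561 of all 20314 genes, and with quantile normalization 2, beside 3163. In cry1 MCT was called lower after light with TMM-type scaling (-0.54, adjusted p = 0.0239) and quantile normalization (-0.58, adjusted p = 0.02), and CMK with quantile normalization (-0.48, adjusted p = 0.0474). HDR, the last step of the pathway, was lower in cry1 than in WT in the dark (-0.77, SE 0.18, adjusted p = 0.00823) and in blue light (-0.54, SE 0.18, adjusted p = 0.0401). The blue light call was kept in 4 of the 12 fits that leave out a library (adjusted p up to 0.154) and lost with quantile normalization (adjusted p = 0.0899). In the dark DXS was lower in cry1 (-0.84, adjusted p = 0.0158) and MCT, a middle step, higher (0.62, adjusted p = 0.0315). The DXS call was lost without cry1 dark replicate 2 or WT dark replicate 1 or 2 (adjusted p = 0.0723, 0.0538 and 0.0507) and with quantile normalization (-0.56, adjusted p = 0.0553). With TMM-type scaling 2 of the 10 were higher and 2 lower in cry1 in the dark, and with quantile normalization 3 higher and 1 lower. Among all 20314 genes, 2315 were higher and 2748 lower with TMM-type scaling, and 2748 higher and 2590 lower with quantile normalization. The MCT call was lost without any 1 of cry1 dark replicates 1 and 2 and WT dark replicates 1, 2 and 3 (adjusted p up to 0.0854). Of 3 helper proteins, OR, the chaperone that stabilises phytoene synthase, rose with light in cry1, at 31.8, 20.6 and 25.8 TPM against 15.7, 10.9 and 12.9 TPM in the dark (0.93, SE 0.20, adjusted p = 0.00729). In WT its light response of 0.46 did not pass as deposited (adjusted p = 0.0970) and passed with TMM-type scaling (0.76, adjusted p = 0.00814) and quantile normalization (0.72, adjusted p = 0.00793). OR and PTOX, the plastid terminal oxidase that serves phytoene desaturation, were lower in cry1 in the dark (-0.71, adjusted p = 0.0220, and -0.58, adjusted p = 0.0157). Both calls ended after TMM-type scaling (0.106 for OR and 0.151 for PTOX), without cry1 dark replicate 2 (0.0899 and 0.0607) and without WT dark replicate 1 (0.0928 and 0.0716), and that of OR without WT dark replicate 2 (0.0672).

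Downstream, 7 of 12 genes of carotenoid cleavage and abscisic acid synthesis passed the filter on low values. CCD4, a plastid dioxygenase that degrades carotenoids, rose in cry1 with light, at 31.9, 22.6 and 40.6 TPM against 2.43, 3.32 and 2.81 TPM in the dark (3.05, SE 0.36, adjusted p = 5.8e-05). WT libraries had 11.4, 2.96 and 9.5 TPM in blue light against 4.12, 5.29 and 4.14 TPM in the dark, with overlap (0.55, SE 0.36, adjusted p = 0.242). CCD4 was higher in cry1 than in WT in blue light (1.99, SE 0.36, adjusted p = 0.00153). NCED3 and AAO3, which act in the synthesis of abscisic acid from xanthophylls, were lower after light in WT (-0.67, adjusted p = 0.0309, and -0.86, adjusted p = 0.0283). Both calls ended after TMM-type scaling (adjusted p 0.196 for NCED3 and 0.0585 for AAO3). They also ended without WT blue replicate 3 (0.122 and 0.0947), WT dark replicate 1 (0.0798 and 0.0685) or WT dark replicate 2 (0.114 and 0.0985), and that of AAO3 without WT blue replicate 2 (0.0966). In the dark cry1 had 4 of the 7 lower than WT and 0 higher: AAO3 (-1.39, adjusted p = 0.00381), NCED3 (-1.02, adjusted p = 0.00587), CCD1 (-0.88, adjusted p = 0.0197) and ABA3 (-0.99, adjusted p = 0.0216). The share over all genes tested was 23.5% lower and 5.33% higher. With TMM-type scaling 4 of the 7 were lower, beside 2748 of all 20314 genes, and with quantile normalization 3, beside 2590. ABA3 was lower in cry1 in blue light too (-1.11, adjusted p = 0.0123). The NCED3 call in the dark was lost with quantile normalization (-0.67, adjusted p = 0.0594). The CCD1 and ABA3 calls in the dark were lost without cry1 dark replicate 2 (adjusted p = 0.0922 and 0.0985), WT dark replicate 1 (0.0580 and 0.0608) or WT dark replicate 2 (0.0905 and 0.102).

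Among 9 regulators of carotenoid genes, HY5, a bZIP factor that promotes greening, was at 73.3, 58.0 and 63.0 TPM in cry1 blue, against 3.09, 4.06 and 2.30 TPM in cry1 dark. In WT, HY5 was at 184, 197 and 175 TPM in WT blue, against 4.82, 3.25 and 3.98 TPM in WT dark. It rose in both genotypes, and its level in blue light was lower in cry1 than in WT (-1.51, SE 0.19, adjusted p = 0.000174). HYH, its relative, was at 93.3, 55.8 and 63.1 TPM in cry1 blue against 13.1, 3.99 and 13.0 TPM in cry1 dark. WT libraries had 211, 242 and 213 TPM in WT blue against 40.8, 31.1 and 33.7 TPM in WT dark. HYH was lower in cry1 in blue light (-1.67, adjusted p = 0.00286) and in the dark (-1.85, adjusted p = 0.00241). PIF1, a bHLH factor known to repress PSY in the dark, was at 12.4, 15.2 and 14.5 TPM in cry1 blue and 13.6, 5.92 and 10.3 TPM in cry1 dark. In WT, PIF1 was at 19.9, 10.1 and 14.3 TPM in WT blue and 19.1, 25.4 and 16.9 TPM in WT dark. It did not pass the test with light in either genotype, and was lower in cry1 in the dark (-1.02, SE 0.29, adjusted p = 0.0196). The call was lost without cry1 dark replicate 2 (adjusted p = 0.0905) or WT dark replicate 1 or 2 (adjusted p = 0.0529 and 0.0850). With light, 4 of the 9 regulators rose in cry1 (HY5, HYH, PIF4 and PIF5) and 2 fell (PAR1 and RAP2.2). In WT 2 rose (HY5 and HYH) and 3 fell (PIF4, PAR1 and RAP2.2). The share over all genes tested was 9.19% higher and 5.73% lower with light in cry1, and 9.73% higher and 25.3% lower in WT. The rise of PIF4 in cry1 was not called without cry1 blue replicate 3 or cry1 dark replicate 2 (adjusted p = 0.0734 and 0.0534) or without both libraries that carried seed markers (0.0693), and that of PIF5 was called in 7 of the 12 fits that leave out a library (adjusted p up to 0.116). PAR1, a cofactor of the shade response known to raise PSY, fell by 1.35 in cry1 and by 1.94 in WT on the log2 scale. In the dark 5 of the 9 were lower in cry1 than in WT, PIF1, PIF3, PIF4, PIF5 and HYH, and in blue light 3 were lower, PIF3, HY5 and HYH, and PIF4 was higher. The share over all genes tested was 23.5% lower in the dark, and 14.3% lower and 10.9% higher in blue light. With TMM-type scaling and with quantile normalization the 9 regulators again had 5 lower in the dark, beside 2748 and 2590 of all 20314 genes. The PIF4 call in the dark was lost without cry1 dark replicate 2 or WT dark replicate 2 (adjusted p = 0.0543 and 0.0520), and the PIF3 call in blue light without cry1 blue replicate 1 or 3 or WT blue replicate 1 (adjusted p = 0.0637, 0.0573 and 0.0697). CRY2, the second cryptochrome, averaged 51.8 ± 7.36 TPM in cry1 blue, 59.7 ± 10.8 TPM in cry1 dark, 45.7 ± 7.73 TPM in WT blue and 94.2 ± 6.14 TPM in WT dark (SD, n = 3 each). It fell with light in WT (-1.04, adjusted p = 0.00101).

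**Figure D5:**
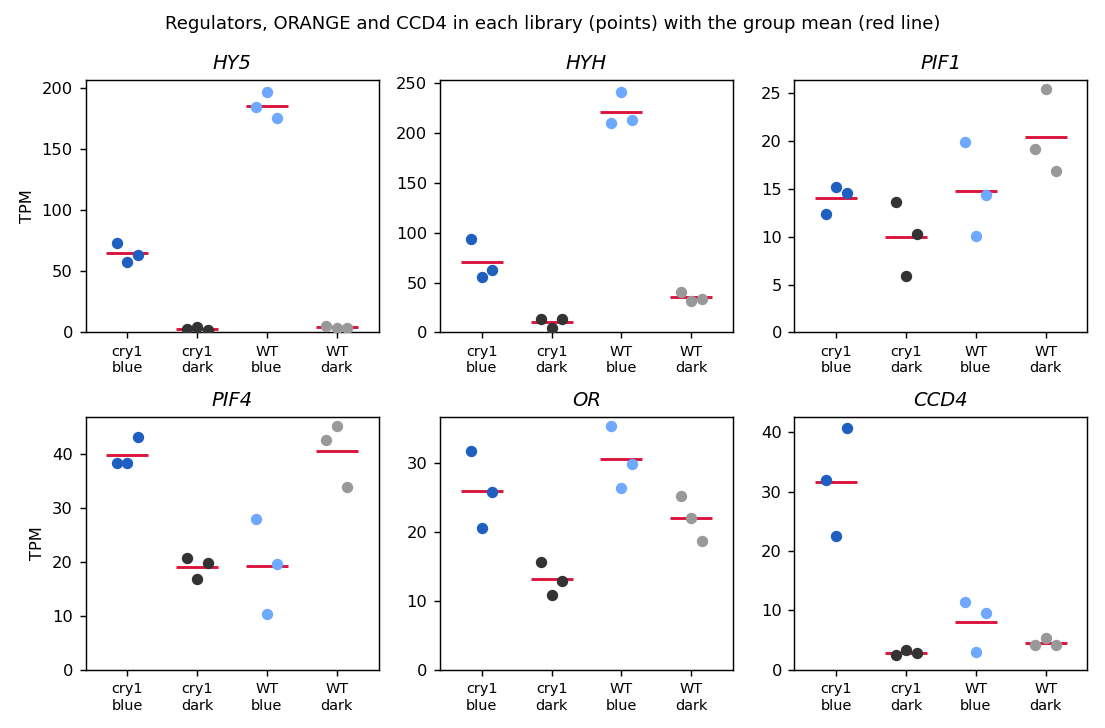
RNA level (TPM, linear axis from 0) of HY5, HYH, PIF1, PIF4, OR and CCD4 in each library, as points, with a line at the mean of each group of 3 libraries. HY5 and HYH lay higher in WT blue than in cry1 blue, PIF4 moved in opposite directions with light in the 2 genotypes, and CCD4 was highest in cry1 blue.

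Of the members, 6 share bases with a neighbouring gene in RefSeq, and whether reads were assigned by strand is not given in the sources used here. PSY shares 108 bases with AT5G17220 on the opposite strand, which averaged 0.27 ± 0.13 TPM in cry1 blue, 0.06 ± 0.07 TPM in cry1 dark, 0.11 ± 0.11 TPM in WT blue and was listed at 0 in WT dark, far below PSY. VDE shares 464 bases with AT1G08560 on the opposite strand, which averaged 21.2 ± 1.07 TPM in cry1 blue, 18.1 ± 3.28 TPM in cry1 dark, 12.7 ± 4.42 TPM in WT blue and 18.3 ± 3.47 TPM in WT dark. LYCB shares 199 bases with the non-coding RNA AT3G02305 on the opposite strand, which averaged 41.9 ± 24.0 TPM in cry1 blue, 18.0 ± 14.8 TPM in cry1 dark, 32.5 ± 10.6 TPM in WT blue and 21.5 ± 6.20 TPM in WT dark, and 157 bases with AT3G10220. LUT2 shares 74 bases with AT5G57020 on the same strand, which averaged 63.7 ± 4.07 TPM in cry1 blue, 63.3 ± 2.71 TPM in cry1 dark, 42.6 ± 7.16 TPM in WT blue and 70.1 ± 6.13 TPM in WT dark, above LUT2 in each group. ZDS shares 115 bases with AT3G04880 on the opposite strand, which averaged 93.98 ± 9.78 TPM in cry1 blue, 98.0 ± 5.73 TPM in cry1 dark, 62.3 ± 2.36 TPM in WT blue and 114 ± 8.57 TPM in WT dark, above ZDS in each group. BCH2 shares 19 bases with AT5G52560 on the opposite strand. The values of these 6 members are uncertain to that extent, and BCH1, ZEP, PDS and CRTISO have no such neighbour.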

How the data were processed

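RNA of seedlings was isolated with RNAiso Plus and made into libraries with an Illumina TruSeq kit, per the labels' protocols. The submitters' processing notes name the build TAIR10 and the tools HISAT2 2.2.1.0, Trimmomatic 0.36, DESeq 1.18.0, Cufflinks, TopHat and Bowtie2, without saying what each did. The deposited values are TPM, 1 table per library; the unit was read from the values. Annotation release and strand setting: not given in the sources used here. A TPM table holds no depth, so no counting interval is given.

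Of the 32833 identifiers, 32548 matched RefSeq's annotation of TAIR10.1. log2(TPM + 1) of the 20314 genes with at least 1 TPM in at least 3 libraries was fitted with limma 3.58.1 (R 4.3.3), 1 mean per group over 12 libraries, a variance trend, no block and Benjamini-Hochberg adjustment over all genes. The pseudocount of 1 understates changes of low genes. The fit was tested on simulated data.

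The members and lists, and the promoter motifs, were chosen with earlier results of these data known. Named genes are all members, in each contrast the up to 3 called genes per list that have the lowest adjusted p, CRY1, CRY2, HY5, HYH, PIF1, Z-ISO, LUT1, LUT5, ABA4 and the 5 genes most like PSY; other genes were named after their values were seen, to complete small counts. Alternatives were TMM-type and quantile scaling, other filters, a pseudocount of 0.1, no trend, nuclear genes only, a fit to 2 groups, a replicate block and leaving out each library; leaving out both libraries with seed markers was chosen after seeing the data. PDS, LYCB and the hydroxylases are PDS3, LYC and BETA-OHASE 1 and 2 in RefSeq, ZEP is ABA1 and VDE is NPQ1.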

Additional observations from a re-analysis of the deposited data

Results flagged for a closer look

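Among the lists beside the members, leaving out the marker and housekeeping lists, 4 genes had light responses that differed between cry1 and WT. The test was that of the difference itself, the cry1 response minus the WT response (limma, adjusted over all 20314 genes). Of all genes tested, 6.84% were higher and 2.33% lower in this contrast. CCD4 had a difference of 2.50 on the log2 scale (SE 0.50, adjusted p = 0.0132), and the call was kept when any one library was left out. PIF4, a bHLH growth factor, had 2.16 (SE 0.38, adjusted p = 0.00771): it was at 38.2, 38.3 and 43.1 TPM in cry1 blue against 20.6, 16.8 and 19.7 TPM in cry1 dark, and at 27.9, 10.3 and 19.6 TPM in WT blue against 42.6, 45.1 and 33.9 TPM in WT dark, so that light and dark did not overlap in either genotype and moved in opposite directions. PIF5 had 1.39 (SE 0.38, adjusted p = 0.0369), a call kept in 4 of the 12 fits that leave out a library, with an adjusted p of up to 0.0908. HY5 had -1.23 (SE 0.27, adjusted p = 0.0175), a call lost without cry1 blue replicate 3 (-1.21, adjusted p = 0.0517). Without both libraries that carried seed markers, HY5 (-1.15, adjusted p = 0.0563) and PIF5 (1.61, adjusted p = 0.0501) lost their calls. None of the 10 members was among them. Root and cotyledon markers moved in this contrast as well, with 6 of 8 and 4 of 5 higher, and 1 of 7 housekeeping genes was higher. With TMM-type scaling and with quantile normalization, 5 of 8 root and 3 of 5 cotyledon markers were higher. The calls of EXPA7, COBL9, PORA and GLK1 were lost in several fits that leave out a library. Without WT blue replicate 2 their adjusted p were 0.0887, 0.0709, 0.0914 and 0.0732. The part of these markers in the result was not tested.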

How the results depend on the processing

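The light calls of PSY, BCH1, BCH2, ZEP and LYCB in cry1 and of PSY, BCH1, BCH2 and ZEP in WT, and both genotype calls of BCH2, held in every alternative run. With light, 5 to 7 members were called higher in cry1 and 4 to 5 in WT when 1 library was left out, and in none was a member lower. In those fits, of 20170 to 20274 genes, 1372 to 2009 were called higher in cry1 and 1392 to 2089 in WT. In blue light, 1 member was called higher in cry1 with TMM-type scaling and with quantile normalization (LYCB) and 2 lower with TMM-type scaling (PSY and BCH2). Among all 20314 genes, 3322 and 3641 were higher with these scalings, and 3390 lower with TMM-type scaling. Leaving out 1 library gave 0 to 1 members higher and 1 to 2 lower in blue light, beside 1231 to 2365 of all genes higher and 1928 to 3312 lower. In the dark, leaving out 1 library gave 1 to 5 members lower, with 1 without cry1 dark replicate 2 or WT dark replicate 1 and 5 without cry1 dark replicate 1. The lower calls over all genes in these 3 fits were 2188 of 20274, 2342 of 20196 and 5331 of 20195. For the difference between light responses 0 to 1 members were called, the 1 without cry1 dark replicate 1, where 1801 of all genes were higher. The following values changed sign, and the cause was not tested. None was called in the settings listed here, but ZDS for light in WT was called with TMM-type scaling (0.41, adjusted p = 0.0414). For cry1 minus WT in the dark, with TMM-type scaling and quantile normalization, PSY was at 0.10 and 0.21, CRTISO at 0.059 and 0.18, LYCB at 0.11 and 0.20 and LUT2 at 0.24 and 0.36 (0.0086 with nuclear genes only), and PDS at 0.093 with quantile normalization. In blue light LUT2 was at 0.018 and 0.089 (0.023 with nuclear genes only), and with quantile normalization PDS was at 0.034, CRTISO at 0.017 and VDE at 0.035. For the WT light response PDS was at 0.20 and 0.15. For the difference between responses PDS was at -0.041 and -0.059, CRTISO at -0.12 and -0.16, LUT2 at -0.22 and -0.27, and ZDS at -0.0078 with TMM-type scaling. Leaving out 1 library gave PDS -0.036 to 0.30 for light in cry1, -0.27 to 0.050 for light in WT and -0.23 to 0.092 between genotypes in blue light, ZDS -0.070 to 0.18 for light in WT, CRTISO -0.0048 to 0.25 for the difference, LUT2 -0.27 to 0.17 in blue light, -0.17 to 0.11 in the dark and -0.26 to 0.18 for the difference, and, in blue light, ZEP -0.33 to 0.14 and VDE -0.24 to 0.084. Libraries with the same replicate number did not deviate together (r = -0.368 to 0.0708), so the numbers gave no sign of pairing. Deviations from means of 3 libraries cannot exclude a shared batch. With a replicate block LUT2 lost its call in cry1 (0.85, adjusted p = 0.0503) and BCH1 gained one in the dark (-0.59, adjusted p = 0.0452). Members called with the block were 5 higher for light in cry1, 5 higher for light in WT, 1 lower in blue light, 4 lower in the dark and 0 for the difference. The same fit over all 20314 genes gave 1692 higher for light in cry1 and 1765 for light in WT. It gave 2579 lower in blue light, 4008 lower in the dark, and 936 higher and 271 lower for the difference. Over all genes, TMM-type scaling gave 3561 higher and 3384 lower for light in WT (1976 and 5144 as deposited), 3322 higher in blue light (2213) and 888 lower for the difference (473); quantile normalization gave 3163, 3641 and 894 for the same counts, 1824 lower for light in cry1 (1164) and 2748 higher and 2590 lower in the dark. For light in cry1 a fit to 2 groups gave 702 lower. TPM gives no depth, so what depth limits could not be assessed.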
